A study of Caenorhabditis elegans with 12 samples.

Results

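Young adults of one genotype did not give the same transcriptome in every library of this study, and libraries with later numbers differed from those with earlier numbers in genes of several tissues, in part differently in each genotype. The comparison here takes 9 of the 12 RNA-Seq libraries and sets the 5 later ones against the 4 earlier ones within each of 3 genotypes. Wild-type has 2 earlier libraries (numbers 3233 and 3234) and 1 later one (3248). The *lin-29* mutant has 1 earlier library (3244) and 2 later ones (3252 and 3253), and the *mab-10* mutant likewise has 1 earlier (3235) and 2 later ones (3249 and 3250). The *ddx-23* mutant was left out because its libraries are all earlier ones. The labels do not say what a library number marks, whether a day of collection, an extraction or a sequencing order, and these cannot be told apart.

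Each sample was total RNA of whole *C. elegans* hermaphrodites, age-synchronized, labelled young adult and picked by hand, and the study compared mutants of the larval-to-adult transition with wild-type. The strains were VT1367 (wild-type), MT24358 (*lin-29(n836)*) and MT19733 (*mab-10(tm2497)*), and all of them carry *maIs105*, a *col-19::gfp* reporter of the adult epidermis. LIN-29 is a zinc finger transcription factor that ends the larval molting program in the epidermis, and MAB-10 is its NAB-family cofactor. The libraries of a genotype are described as biological replicates.

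In this worm the epidermis builds a new cuticle at every larval molt, in a program in which regulators, secreted hedgehog-related proteins, a temporary precuticle, proteases and collagens come on in turn and go off again. After the last molt the intestine of the adult hermaphrodite makes yolk in bulk and the oocytes take it up. Neuropeptide and synaptic genes are used in neurons throughout life, and the germline holds a large part of the RNA of an adult, so the level of a gene of one tissue, as a share of all RNA, also depends on the amount of RNA from the others. In RNA of whole animals, fewer cells of a type and less RNA per cell cannot be told apart.

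All levels below are log2(FPKM + 1) as deposited by the authors, FPKM being the density of fragments on a transcript scaled to its length and to the size of the library, and a difference is the later minus the earlier level on that scale, fitted with limma with genotype as a block (9 libraries, 5 residual degrees of freedom). A fold read from it understates the change of genes near 0. Of 46761 genes, 13850 reached an FPKM of 1 in 3 or more libraries and were tested, with p-values adjusted by Benjamini and Hochberg over all of them. The table holds no read counts, so the depth of a library is not known, and between 16235 and 17857 genes were above 0 in each. Defining markers of the tissues of a whole hermaphrodite were present in every library, with the intestinal actin *act-5* at 8.14 to 9.04, the oocyte regulator *oma-2* at 8.16 to 8.81 and the muscle myosin *unc-54* at 7.83 to 9.03. The adult collagen *col-19* lay between 4.15 and 4.42 in the 3 *lin-29* libraries and between 6.30 and 9.01 in the other 6, while the *lin-29* transcript was no lower in *lin-29* libraries (2.85 to 3.27) than in wild-type (1.90 to 2.13), and the *mab-10* transcript no lower in *mab-10* libraries (2.67 to 3.15) than in wild-type (2.03 to 2.72), so the levels of the mutated genes check neither allele.

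Libraries of one genotype and one series resembled each other more than libraries across the division. The SD over genes of the difference between 2 libraries was 0.326, 0.390 and 0.371 for the 3 pairs within a series, and 0.637 to 0.731 for the 6 pairs across it. Between 1.83% and 2.61% of the genes differed by over 1 within a series, against 11% to 14.6% across it. Once the mean of each genotype was taken out, the first principal component held 54% of the variance and placed the earlier libraries between -46.1 and -19.8 and the later ones between 17.1 and 44.2. These values describe a division that was placed with results of these data known, and the other gap in the library numbers (3235 to 3239) is as wide, 4 numbers, as the one used (3244 to 3248), so neither the separation nor a p-value below is independent evidence for where the division lies. On each side of it 1 genotype or another is represented by a single library, and wild-type replicate 3, *lin-29* replicate 1 and *mab-10* replicate 1 each stand alone.

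More genes were higher than lower in the later libraries. At an adjusted p under 0.05, 2963 genes (21.4%) rose and 865 (6.25%) fell. With a difference of over 1 as well, 860 genes (6.21%) rose and 86 (0.621%) fell, so 90.9% of these calls were rises. Under quantile normalization, which gives all libraries one distribution, 383 rose and 179 fell, a share of 68.1%, and without the fold threshold the share of rises went from 77.4% to 48.0%. Over all tested genes the differences had a median of 0.12, and of -0.04 after quantile normalization, so the medians of the gene lists below are read against it. Later libraries lay above earlier ones in each of the 3 genotypes for 26.5% of the genes, and below in each for 9.88%. Fitted within one genotype, 17.4% of the genes rose and 5.16% fell in wild-type, 14.3% rose and 11.1% fell in *lin-29*, and 14.4% rose and 4.41% fell in *mab-10*. Between pairs of genotypes, the differences of 64.4% to 68.1% of the genes had the same sign, with Pearson's r of 0.347 to 0.466 across genes, which are not independent replicates.

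**Figure D1:**
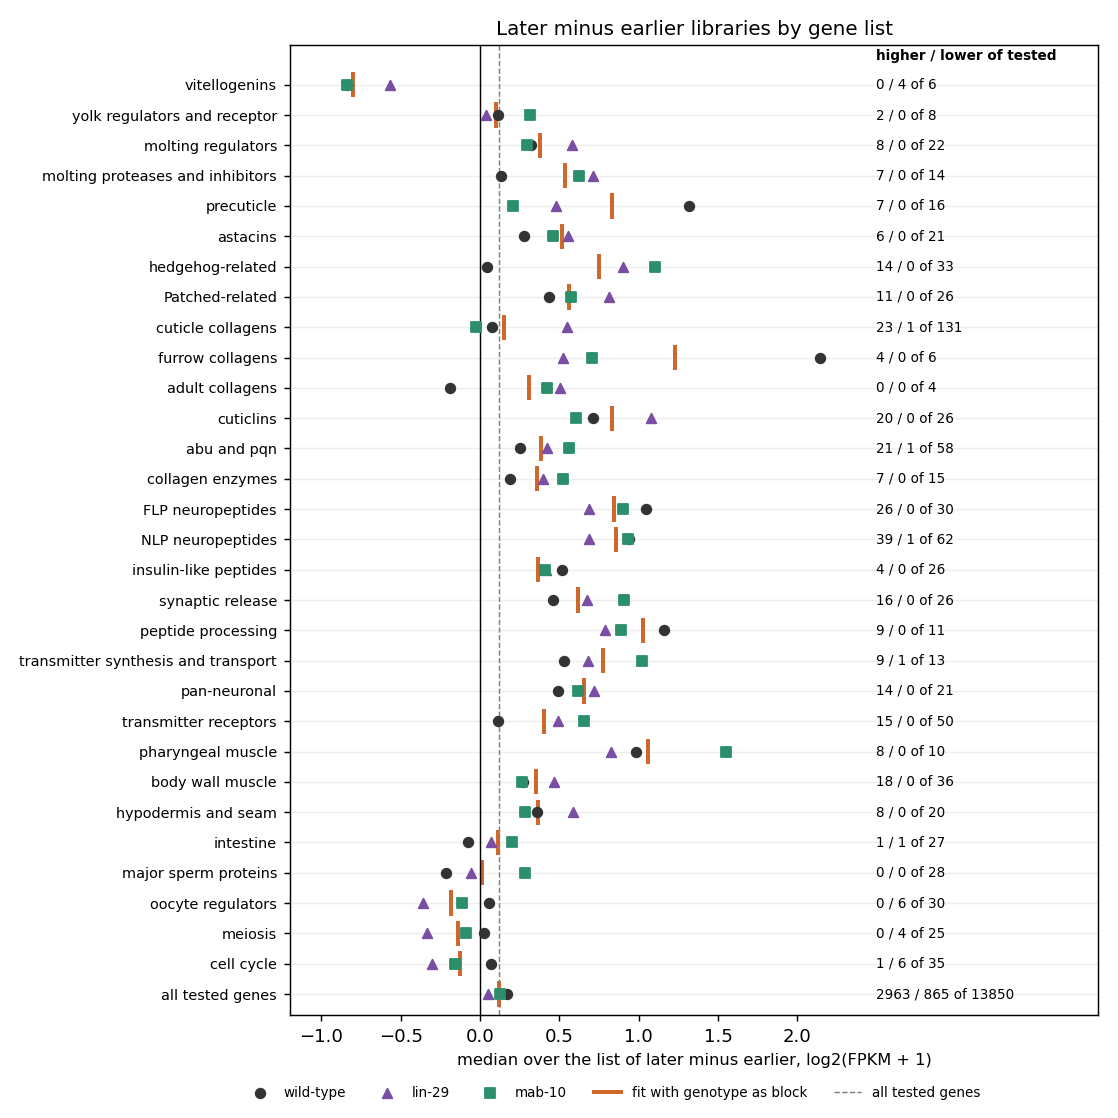
Median over each gene list of the later minus earlier difference in log2(FPKM + 1), for wild-type (circles), *lin-29* (triangles), *mab-10* (squares) and the fit with genotype as block (bars), with the counts of members that rose and fell (adjusted p below 0.05) among those tested at the right. The vitellogenins lie at the left (fitted median -0.80), the furrow collagens at the right (1.23) with the neuropeptide, peptide processing and pharyngeal muscle lists (0.85 to 1.06), and all tested genes at 0.12 (dashed line).

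Vitellogenins were lower in the later libraries. Of the 6 vitellogenins, the lipoproteins of yolk, 4 fell and none rose, and the other 2 did not pass, with a median difference of -0.80. *vit-4* stood at 11.85 and 11.83 in the earlier wild-type libraries and at 9.97 in the later one, at 9.16 in the earlier *lin-29* library and 7.93 and 7.73 in the later ones, and at 11.11 in the earlier *mab-10* library and 9.47 and 9.47 in the later ones. The series do not overlap in any genotype, and the pair of wild-type libraries on one side differed by 0.02. The fitted difference of *vit-4* was -1.61 (SE 0.10, limma adjusted p = 0.000277). *vit-3* fell by 1.51 (SE 0.17, limma adjusted p = 0.00149) and *vit-1* by 1.33 (SE 0.11, limma adjusted p = 0.000553), also without overlap in any genotype.

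*vit-5* was 12.29, 12.28 and 12.21 in wild-type (the later library last), 10.82 against 10.61 and 10.62 in *lin-29*, and 12.07 against 11.48 and 11.60 in *mab-10*, a difference of -0.27 (SE 0.09, limma adjusted p = 0.0483). With 1 library left out, that call still passed only when it was wild-type replicate 3, and without *mab-10* replicate 1 the difference was -0.14 (adjusted p = 0.179). *vit-6* (-0.20, limma adjusted p = 0.0842) and *vit-2* (0.11, limma adjusted p = 0.196) did not pass, and *vit-2* was between 11.77 and 12.64 in all 9 libraries. *vit-3*, *vit-4* and *vit-5* are close copies of one another on the X chromosome (positions 3567355 to 3572549, 3558769 to 3563965 and 3403471 to 3408603 of WBcel235), so reads may have been split between them, and *vit-1* (7727889 to 7733168) is a close relative of *vit-2* (5101042 to 5106169). The summed FPKM of the 6 genes was 27520 and 27351 in the earlier wild-type libraries against 20520 in the later one, 11179 against 9858 and 9480 in *lin-29*, and 20389 against 14167 and 13865 in *mab-10*.

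**Figure D2:**
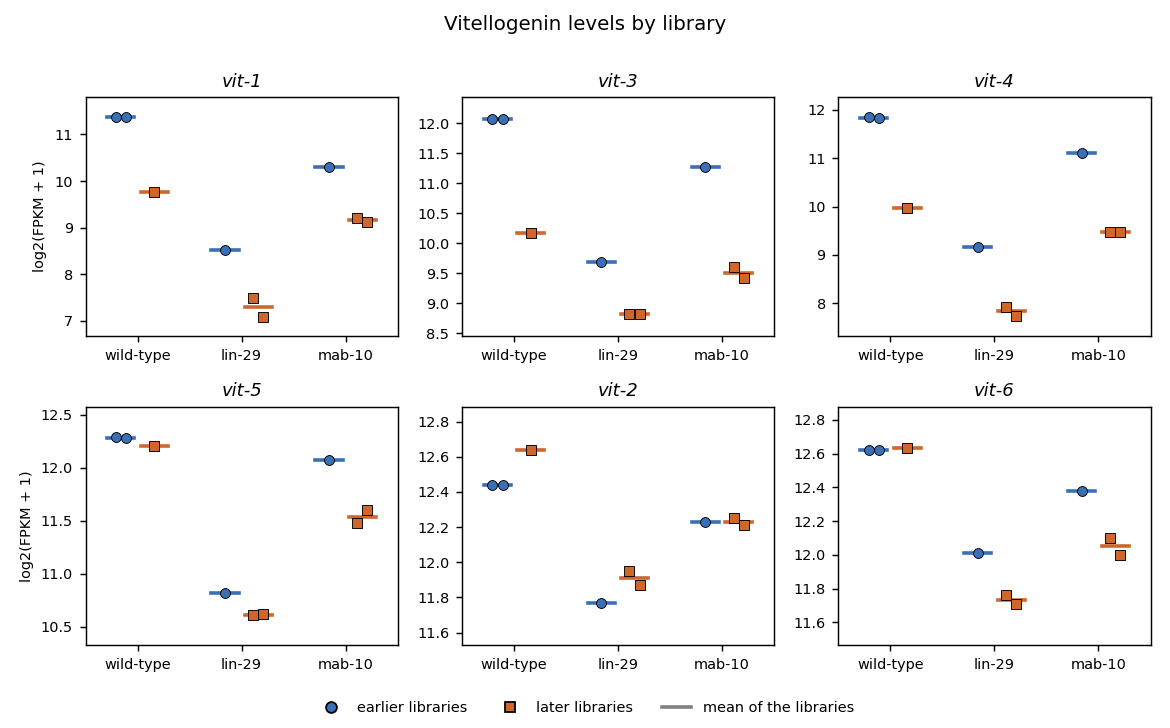
Level of the 6 vitellogenins as log2(FPKM + 1) in each of the 9 libraries, by genotype, with earlier libraries as blue circles, later ones as orange squares and a bar at their mean. *vit-1*, *vit-3* and *vit-4* are lower in the later libraries of each genotype by 0.86 to 1.89, and *vit-2* and *vit-6* are not.

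Of 8 regulators of yolk genes and yolk uptake, 2 rose (25%, beside 21.4% of all tested genes) and none fell. *pqm-1*, a zinc finger factor of the intestine, was at 3.78 and 3.74 in the earlier wild-type libraries and 5.73 in the later one, at 5.45 against 6.22 and 6.10 in *lin-29*, and at 4.07 against 5.27 and 4.89 in *mab-10* (difference 1.23, SE 0.21, limma adjusted p = 0.00546). *lrp-2*, a lipoprotein receptor-related gene, rose by 0.44 (SE 0.13, limma adjusted p = 0.0339), a call that ended when any 1 of the 9 libraries was left out (adjusted p up to 0.0957, without *lin-29* replicate 1). The median over all 14 yolk genes was -0.05.

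Molting genes were higher in the later libraries. Of 130 tested genes in the 7 molting lists, 51 (39.2%, beside 21.4% of all tested genes) rose and none fell, with a median difference of 0.60. The median was 0.32 within wild-type, 0.76 within *lin-29* and 0.55 within *mab-10*. The count depended on single libraries: it was 24 without *lin-29* replicate 1 and 63 without wild-type replicate 3, the lowest and highest of the 9 fits. It was 2 with the division at the other gap, where *lin-29* contributes no difference, and 33 with library number as a covariate in place of the division.

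Among 22 molting regulators, 8 rose (36.4%, beside 21.4% of all tested genes). Their median was 0.38, or 0.01 after quantile normalization. *acn-1*, a secreted protein related to angiotensin-converting enzyme, was at 2.31 and 2.41 in the earlier wild-type libraries and at 3.19 in the later one, at 4.43 against 5.48 and 5.81 in *lin-29*, and at 2.74 against 3.26 and 3.89 in *mab-10*. Its series did not overlap in any genotype, and it rose by 0.96 (SE 0.17, limma adjusted p = 0.00534). *bed-3*, a zinc finger gene of the molting cycle, rose by 0.98 (SE 0.21, limma adjusted p = 0.0114). The period homolog *lin-42* (0.86) and the Grainyhead factor *grh-1* (0.85) passed narrowly (limma adjusted p = 0.0477 and 0.0376). With 1 library left out, *lin-42* still passed only when that was *mab-10* replicate 1 (difference 1.32) or 2, and *grh-1* only when it was wild-type replicate 1 or 3, and the adjusted p without *lin-29* replicate 1 was 0.198 for *lin-42* and 0.129 for *grh-1* (difference 0.42).

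Some secreted proteins of molting were higher mainly in the mutants. *mlt-10*, which is needed for shedding the old cuticle, was at 2.47, 2.26 and 2.49 in wild-type with the later library last, at 3.51 against 5.71 and 5.46 in *lin-29*, and at 2.47 against 3.79 and 4.58 in *mab-10*. The later wild-type library was thus level with the earlier ones, and the test of the difference between genotypes did not pass (adjusted p = 0.0842 by the limma F test). In the common fit *mlt-10* rose by 1.3 (SE 0.35, limma adjusted p = 0.0272), a call that ended without any 1 of the *lin-29* libraries (adjusted p 0.0555 to 0.128) or without *mab-10* replicate 1 (0.114). *mlt-8* rose by 1.34 (SE 0.29, limma adjusted p = 0.0139; 0.0556 without *lin-29* replicate 1) and *mlt-9* by 1.66 (SE 0.42, limma adjusted p = 0.0240), the latter ending when *lin-29* replicate 1 (0.113), *mab-10* replicate 1 (0.106) or wild-type replicate 2 (0.0567) was left out. Leaving out wild-type replicate 3 lowered the difference of *mlt-8* to 1.02 and raised that of *mlt-9* to 2.32. The rise of *mlt-8* was thus not mainly in the mutants. In all, 7 of 14 proteases, inhibitors and other secreted molting proteins rose (50%, beside 21.4% of all tested genes). Of 21 astacin metalloproteases 6 rose (28.6%, beside 21.4% of all tested genes), none by over 1, while none of the 3 tested MLT-10 relatives passed (*mltn-1* 0.64 and *mltn-12* 0.50).

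Hedgehog-related genes and Patched-related proteins are linked to molting and cuticle traffic in worms. Of 33 warthog, groundhog and ground-like genes, 14 rose in the common fit (42.4%, beside 21.4% of all tested genes) and none fell (median 0.75). Their median was 0.05 within wild-type, where that of all tested genes was 0.17, but 0.90 within *lin-29* and 1.1 within *mab-10*. Their summed FPKM was 229 and 187 in the earlier wild-type libraries and 145 in the later one, 744 against 1341 and 1638 in *lin-29*, and 223 against 509 and 571 in *mab-10*. *grl-5*, the member with the largest difference, was at 0.93, 0.00 and 0.77 in wild-type, at 3.37 against 6.35 and 6.62 in *lin-29*, and at 1.23 against 3.30 and 4.23 in *mab-10* (difference 1.98, SE 0.52, limma adjusted p = 0.0268). Its wild-type libraries overlap, and the call ended when wild-type replicate 2 (adjusted p 0.0585), any 1 of the *lin-29* libraries (0.0557 to 0.118) or *mab-10* replicate 1 (0.107) was left out. *wrt-1* rose by 1.45 and *wrt-2* by 1.44, with adjusted p of 0.0154 and 0.0145 by limma, and of 0.0617 (difference 0.96) and 0.0705 (1.06) without *lin-29* replicate 1.

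Of 26 Patched-related genes, 11 rose (42.3%, beside 21.4% of all tested genes) and none fell. The 4 with the largest differences, *ptr-18* (1.31), *ptr-4* (1.16), *ptc-3* (1.15) and *ptr-25* (1.09), passed in each of the 9 fits that left out a library. *ptr-4* was at 0.90 and 0.52 in the earlier wild-type libraries and 2.06 in the later one, at 3.93 against 4.89 and 5.29 in *lin-29*, and at 1.52 against 2.30 and 2.71 in *mab-10* (SE 0.18, limma adjusted p = 0.00325). Of 16 genes of the precuticle, the matrix that covers the epidermis while a new cuticle forms, 7 rose. That share was 43.8%, beside 21.4% of all tested genes. Unlike the molting genes as a whole, this list had its largest median in wild-type (1.32, against 0.48 in *lin-29* and 0.21 in *mab-10*). Its fitted median of 0.83 dropped to 0.34 once the lone later wild-type library was removed. Removing the earlier *mab-10* library raised it to 1.07. *dsl-6* rose by 1.58 (SE 0.28, limma adjusted p = 0.00555), and the lipocalin *lpr-3* by 1.03 (SE 0.29, limma adjusted p = 0.0319), a call that still passed only when the library left out was *lin-29* replicate 1 or 2 or *mab-10* replicate 2 (difference 0.62 and adjusted p 0.120 without wild-type replicate 3).

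Cuticle genes rose in part. Of 234 tested, 73 (31.2%) rose and 2 fell, with a median difference of 0.35. Of the 131 collagens 23 rose (17.6%, against 21.4% of all tested genes) and 1 fell, and their median was 0.15, or -0.01 after quantile normalization. The pair that fell, the collagen *col-135* (-1.23, limma adjusted p = 0.0491) and the prion-like *pqn-21* (-0.41, limma adjusted p = 0.0157), was named after the values were seen. The count of risers in the whole group was lowest, 44, when *lin-29* replicate 1 was left out and highest, 81, when wild-type replicate 3 was, and it was 10 with the division at the other gap.

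A few collagens carried the largest differences. *col-74* and *col-165* were at or near 0 in the earlier wild-type libraries (0.00 and 0.20 for *col-74*, 0.00 and 0.00 for *col-165*) and at 3.51 and 3.15 in the later one. In *lin-29* both were listed at 0.00 in the earlier library and at 5.74 to 6.23 in the later ones, and in *mab-10* *col-74* went from 2.52 to 6.20 and 7.02 and *col-165* from 2.36 to 6.15 and 6.96. The 2 genes lie on different chromosomes, *col-74* on II (5830374 to 5832022) and *col-165* on X (4353618 to 4354852), and followed each other closely over the 9 libraries. The fitted differences were 4.49 for *col-74* (SE 0.44, limma adjusted p = 0.00119) and 4.45 for *col-165* (SE 0.47, limma adjusted p = 0.00144).

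*sqt-3* and *dpy-17*, collagens that set body shape and depend on each other for secretion, were expressed in every library. *sqt-3* was at 4.36 and 3.89 in the earlier wild-type libraries and at 6.81 in the later one, at 6.36 against 8.66 and 9.05 in *lin-29*, and at 6.14 against 7.97 and 8.70 in *mab-10*. Its difference was 2.46 (SE 0.19, limma adjusted p = 0.000590), and that of *dpy-17* was 2.38 (SE 0.27, limma adjusted p = 0.00192). Neither overlapped between series in any genotype.

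The collagens of the annular furrows, the circular grooves of the cuticle, divided by member. 4 of 6 rose, *dpy-7* (1.39), *dpy-2* (1.31), *dpy-3* (1.28) and *dpy-10* (1.18), with limma adjusted p between 0.0208 and 0.0277, while *dpy-8* (0.00) and *dpy-9* (0.01, limma adjusted p = 0.974) did not pass. *dpy-7* was at 1.52 and 1.3 in the earlier wild-type libraries and 3.91 in the later one, at 5.11 against 5.28 and 5.88 in *lin-29*, and at 3.10 against 3.86 and 4.71 in *mab-10*. Without wild-type replicate 3 the differences of these 4 genes were 0.74 to 0.85, and the adjusted p was 0.0692 to 0.0797. Leaving out either earlier wild-type library, the earlier *mab-10* library or the third of *lin-29* also ended the call of *dpy-7*, as did leaving out *mab-10* replicate 1 that of *dpy-3* and either earlier wild-type library that of *dpy-10*. Of 4 adult collagens tested none passed, and *col-7* (1.25, limma adjusted p = 0.0642) and *col-62* (0.71, limma adjusted p = 0.0706) were nearest.

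Of 26 cuticlins 20 rose (76.9%, beside 21.4% of all tested genes) and none fell (median 0.83). *cut-2* went from 1.58 and 1.2 to 4.11 in wild-type, from 5.66 to 8.13 and 8.47 in *lin-29*, and from 3.51 to 7.0 and 7.86 in *mab-10* (difference 3.10, SE 0.29, limma adjusted p = 0.00119). *cut-3* (3.60), *cut-6* (1.40) and *cut-5* (1.38) rose without overlap in any genotype. Of 15 enzymes that modify or cross-link collagen 7 rose (46.7%), and the median of the list was 0.361, or 0.133 after quantile normalization. The prolyl 4-hydroxylase subunits *phy-2* (1.47, SE 0.14, limma adjusted p = 0.000848) and *dpy-18* (1.11, SE 0.12, limma adjusted p = 0.00124) led, with the lysyl hydroxylase *let-268* (0.65) and the dual oxidase *bli-3* (0.59) behind them. *phy-2* was at 2.93, 2.75 and 4.42 in wild-type, at 4.62, 6.24 and 6.31 in *lin-29* and at 3.80, 4.73 and 5.21 in *mab-10*, in order of library number. Of 58 *abu* and *pqn* genes, many of which encode proteins of the pharyngeal cuticle, 21 rose (36.2%) and 1 fell (1.72%, beside 6.25% of all tested genes). Their median was 0.386, or 0.135 after quantile normalization. *abu-14* (2.48), *pqn-73* (2.25) and *pqn-13* (1.96) were highest among those that passed in all 9 fits leaving out a library.

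**Figure D3:**
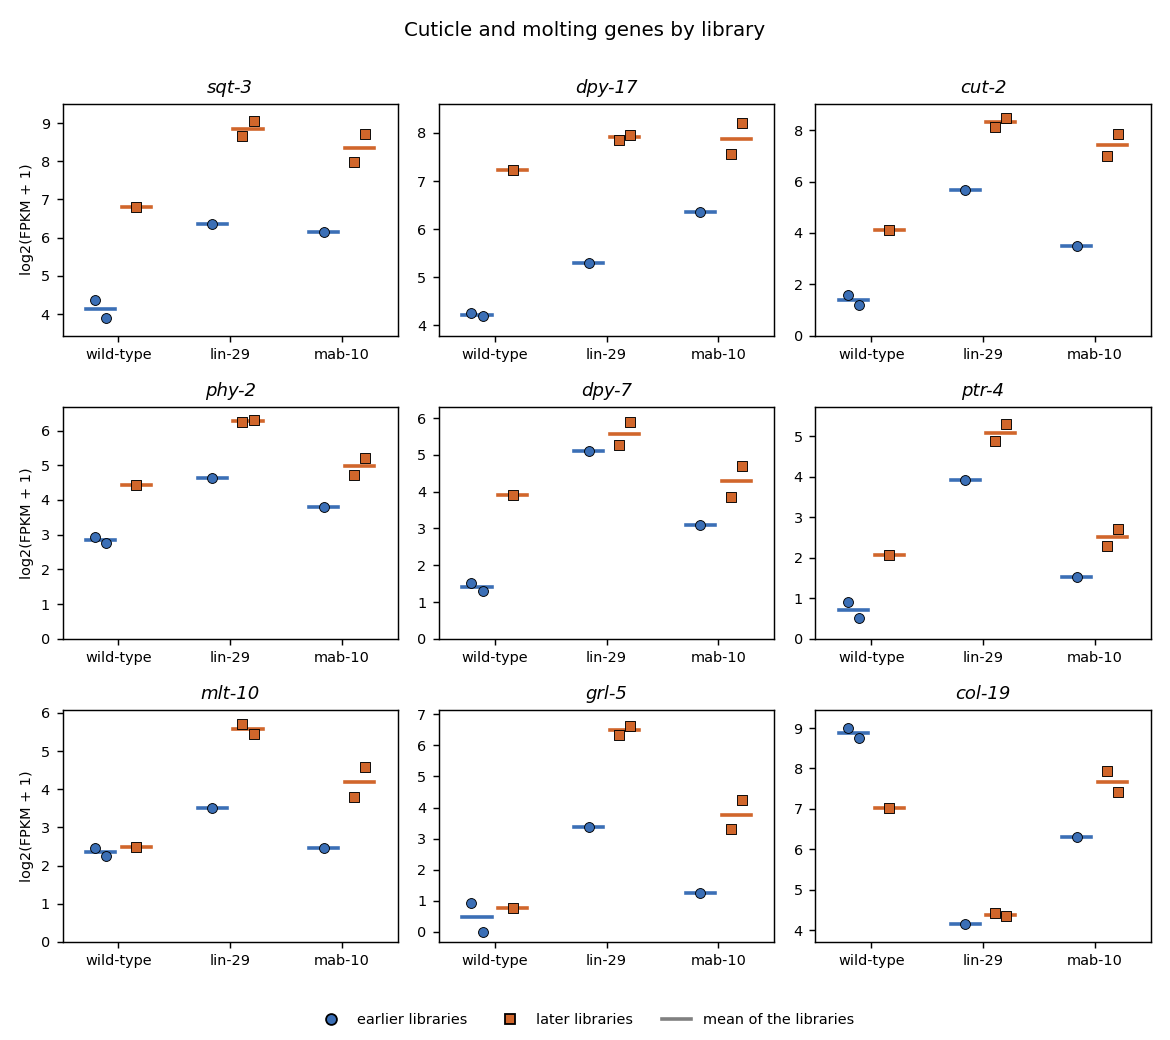
Level of 9 cuticle and molting genes as log2(FPKM + 1) in each library, by genotype, with earlier libraries as blue circles, later ones as orange squares and a bar at their mean. *sqt-3*, *dpy-17*, *cut-2*, *phy-2* and *ptr-4* are higher in the later libraries of each genotype, *mlt-10* differs by 0.13 in wild-type against 1.71 to 2.07 in the mutants, and *col-19* is lower in wild-type (by 1.87) and higher in *mab-10* (by 1.37).

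Neuronal genes were higher in the later libraries of each genotype. Of 237 tested, 130 (54.9%, beside 21.4% of all tested genes) rose and 2 fell. Later libraries lay above earlier ones in each of the 3 genotypes for 141 (59.5%, against 26.5% of all tested genes). The median difference was 0.67 in the common fit, and 0.58, 0.62 and 0.82 within wild-type, *lin-29* and *mab-10*, where 90, 79 and 97 of them rose. The count in the common fit was 105 to 124 when any 1 library was left out, 84 under quantile normalization and 41 with the division at the other gap. The pair that fell was *tbh-1*, tyramine beta-hydroxylase of octopamine synthesis (-0.35, limma adjusted p = 0.0177), and *nlp-36* (-0.44, limma adjusted p = 0.00341), both named after the values were seen.

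Most neuropeptide precursors rose. Of 30 FMRFamide-like peptide genes 26 rose, and the 4 that did not pass were *flp-8* (-0.06), *flp-4* (0.36), *flp-26* (0.65) and *flp-34* (0.68). *flp-17* was at 3.04 and 3.0 in the earlier wild-type libraries and at 4.45 in the later one, at 2.01 against 3.63 and 3.44 in *lin-29*, and at 3.23 against 4.91 and 4.70 in *mab-10*. It rose by 1.51 (SE 0.11, limma adjusted p = 0.000337), and its difference was nearly the same in each genotype (1.43, 1.52 and 1.57). Of 62 neuropeptide-like genes 39 rose and 1 fell. *ntc-1*, which encodes nematocin, the worm relative of oxytocin and vasopressin, rose by 1.90 (SE 0.19, limma adjusted p = 0.00102), and *nlp-14* by 1.73 (SE 0.19, limma adjusted p = 0.00122). Insulin-like peptides had 4 of 26 higher (*ins-1* 1.18, *ins-26* 0.91, *ins-17* 0.90 and *ins-18* 0.85), a share of 15.4% beside 21.4% of all tested genes. *ins-26* did not pass without wild-type replicate 3 (0.56, adjusted p = 0.0545), nor *ins-18* without it or without *mab-10* replicate 1 (adjusted p up to 0.0646).

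The machinery that makes and releases peptides rose with them. Of 11 genes of peptide processing 9 rose (81.8%, beside 21.4% of all tested genes). Their median was 1.03, beside 0.85 for the FMRFamide-like and 0.86 for the neuropeptide-like genes. The proprotein convertase *egl-3* was at 3.73, 3.94 and 5.17 in wild-type, at 3.84, 5.05 and 4.93 in *lin-29* and at 4.72, 5.91 and 5.78 in *mab-10*, in order of library number (difference 1.2, SE 0.09, limma adjusted p = 0.000337). *ida-1*, a tyrosine phosphatase-like protein of dense core vesicles, rose by 1.63 (SE 0.10, limma adjusted p = 0.000277), and *sbt-1*, the chaperone 7B2 homolog, by 1.12 (SE 0.07, limma adjusted p = 0.000277). Between genotypes these differences varied little, from 1.47 to 1.71 for *ida-1* and from 1.12 to 1.34 for *egl-3*.

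Synaptic genes followed. Of 26 genes of vesicle release 16 rose (61.5%, beside 21.4% of all tested genes). Among them were complexin *cpx-1* (1.41), the synaptotagmin *snt-4* (1.3), the calcium channel *unc-2* (1.28) and synaptogyrin *sng-1* (1.28), each without overlap in any genotype. Of 13 genes of transmitter synthesis and transport 9 rose (69.2%) and 1 fell (7.69%, beside 6.25% of all tested genes). The GABA transporter *snf-11* (1.25), the acetylcholinesterases *ace-2* (1.09) and *ace-1* (0.95) and the glutamate decarboxylase *unc-25* (1.04) were in front. Of 21 genes of neuronal identity 14 rose (66.7%), including the POU homeobox gene *unc-86* (1.47) and the alpha tubulin *mec-12* (0.94, SE 0.09, limma adjusted p = 0.000903). Of 50 transmitter receptors 15 rose (30%, nearer to the 21.4% of all tested genes), with the GABA receptor *unc-49* at 1.24 (SE 0.13, limma adjusted p = 0.00122). The median of the receptor list was 0.41, or 0.12 after quantile normalization.

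**Figure D4:**
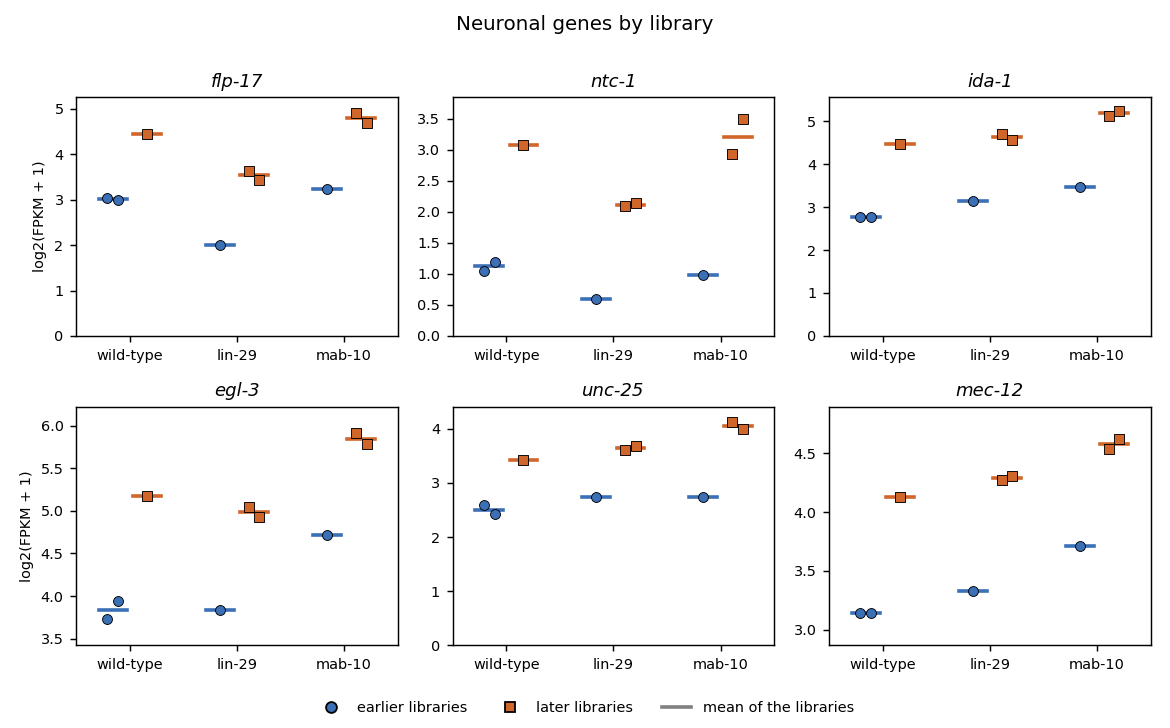
Level of 6 neuronal genes as log2(FPKM + 1) in each library, by genotype, with earlier libraries as blue circles, later ones as orange squares and a bar at their mean. All 6 are higher in the later libraries of each genotype, by 0.87 to 2.23.

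Markers of other tissues differed from list to list, beside 21.4% of all tested genes that rose and 6.25% that fell. Of 10 genes of pharyngeal muscle 8 rose (median 1.06), among them the pharyngeal myosin *myo-2* (1.51, SE 0.14, limma adjusted p = 0.000863) and the troponin T gene *tnt-4* (1.55). Of 36 body wall muscle genes 18 rose (median 0.35), and of 20 genes of hypodermis and seam cells 8 rose (median 0.36), including the junction genes *ajm-1* (1.06) and *dlg-1* (1.04). None of 30 oocyte regulators rose and 6 fell, among them *spn-4* (-0.48) and *car-1* (-0.32). The oocyte median was 0.05 within wild-type, where 19 of the 30 were above 0, -0.36 within *lin-29*, where 0 were, and -0.12 within *mab-10*. Of 61 sperm genes 9 rose (14.8%) and 1 fell. Of 17 early zygotic genes 4 rose (23.5%) and 1 fell, with a median of -0.16 for this list. Both shares of rises were near or below the 21.4% of all tested genes. None of 25 meiosis genes rose and 4 fell, and none of 28 major sperm protein genes passed in either direction. Of 27 intestinal genes 1 rose and 1 fell, the latter being the peptide transporter *pept-1* (-1.04, limma adjusted p = 0.00272). The summed FPKM of the oocyte regulators ranged from 9503 to 10511 in the earlier libraries and from 7248 to 9246 in the later ones, and that of the neuronal genes from 2839 to 3422 and from 3959 to 5101. The part of the balance between germline and soma in the neuronal, molting and cuticle differences was not tested.

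Outside these groups, non-coding RNAs and enzymes stood among the largest differences that did not overlap in any genotype. *rpr-1*, the RNA component of RNase P, was at 1.18 and 1.17 in the earlier wild-type libraries and at 6.61 in the later one, at 1.79 against 4.49 and 4.09 in *lin-29*, and at 0.00 against 5.40 and 6.33 in *mab-10* (difference 4.60, SE 0.60, limma adjusted p = 0.00310). The long non-coding RNAs *tts-2* (3.56, SE 0.30) and *tts-1* (3.15, SE 0.57) also rose. *mtre-1* (3.22), the inositol transporter *hmit-1.1* (3.12), *nspe-7* (3.07), the linker histone *hil-7* (3.01), the invertebrate lysozyme *ilys-3* (2.85) and *chtb-1* (2.61) completed the group, with the acyl-CoA synthetase *acs-2* (2.62, limma adjusted p = 0.0483), which with 1 library left out still passed only when that was *mab-10* replicate 1 or 2 (difference 1.29 and adjusted p 0.0575 without wild-type replicate 3).

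The genes that fell most included a tight cluster. The *pud* genes, highly expressed and found only in nematodes, lie between 2322038 and 2330930 on chromosome V. *pud-3* was at 11.23 and 11.15 in the earlier wild-type libraries and at 7.22 in the later one, at 9.59 against 8.56 and 8.62 in *lin-29*, and at 8.91 against 5.05 and 3.26 in *mab-10*. *pud-3* fell by 3.24 (SE 0.72, limma adjusted p = 0.0189; 0.0574 without *mab-10* replicate 1), *pud-1.2* by 2.83, *pud-4* by 2.55, *pud-2.2* by 2.33 and *pud-1.1* by 1.95. Within *lin-29* alone the falls were smaller, with *pud-1.2* at -1.33, *pud-3* at -0.99, *pud-2.2* at -0.60, *pud-4* at -0.22 and *pud-1.1* at -0.14, and of these *pud-1.2* passed there (limma adjusted p = 0.0349). A second gene that carries the symbol *pud-2.2* (WBGene00017490) differed by -2.44 and did not pass (limma adjusted p = 0.174). With 1 library left out, *pud-4* still passed only when that was *lin-29* replicate 1 or *mab-10* replicate 3, and *pud-1.1* only when it was *lin-29* replicate 1 or 2 or *mab-10* replicate 3, with differences of -1.77 and -1.29 (adjusted p 0.149 and 0.128) without *mab-10* replicate 1. These genes include close copies, so reads may have been split between them.

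The acyl-CoA dehydrogenase *acdh-1* of the propionate shunt was at 7.17 and 6.94 in the earlier wild-type libraries and at 3.30 in the later one, at 6.85 against 5.78 and 5.77 in *lin-29*, and at 6.87 against 3.97 and 4.75 in *mab-10*. It fell by 2.45 (SE 0.45, limma adjusted p = 0.00990). Other genes of propionate breakdown, looked at after the values were seen, went both ways. *hphd-1* fell by 1.04 (limma adjusted p = 0.0109), *ech-6* by 0.46 (limma adjusted p = 0.0220) and *hach-1* by 0.22 (limma adjusted p = 0.0451). *pcca-1* (0.51, limma adjusted p = 0.00298), *mmcm-1* (0.46, limma adjusted p = 0.00691) and *alh-8* (0.31, limma adjusted p = 0.0213) rose. Of 60 lipid enzymes 17 rose (28.3%, beside 21.4% of all tested genes) and 10 fell (16.7%, beside 6.25%). The folate transporter *folt-2* fell by 2.92 (SE 0.59, limma adjusted p = 0.0142), *drd-1* by 2.66 (SE 0.23, limma adjusted p = 0.000612) and *cyp-25A1*, a cytochrome P450, by 2.05 (SE 0.25, limma adjusted p = 0.00174). *elo-5* and *elo-6*, elongases that make branched-chain fatty acids, fell by 2.06 and 1.70. *acdh-1*, *folt-2*, *drd-1*, *cyp-25A1* and *elo-5* are among the 10 largest falls, which were chosen for libraries that do not overlap in any genotype. That trait is thus no further evidence, and 9.88% of all tested genes lay lower in this way.

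Where the difference varied with genotype was tested with a later minus earlier term for each. It varied for 720 genes (5.2%), and each such term rests on a single library on one side. *nlp-34*, an epidermal antimicrobial peptide gene, was at 3.10 and 3.09 in the earlier wild-type libraries and 5.21 in the later one, at 8.18 against 9.74 and 9.85 in *lin-29*, and at 9.40 against 6.26 and 6.22 in *mab-10*. Its differences of 2.11, 1.61 and -3.17 have opposite signs, and the F test of the variation gave an adjusted p of 4.45e-05 by limma. *col-19* was lower in the later wild-type library (7.01 against 9.01 and 8.76) and higher in the later *mab-10* libraries (7.93 and 7.41 against 6.30), and it varied between genotypes with an adjusted p of 0.0112 by the limma F test. Among the vitellogenins *vit-3* varied (-1.89, -0.86 and -1.77 in wild-type, *lin-29* and *mab-10*, limma adjusted p = 0.0189) and the other 5 did not pass that test. Of the 237 neuronal genes 6 varied with genotype, of the 130 molting genes 6 and of the 234 cuticle genes 49.

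**Figure D5:**
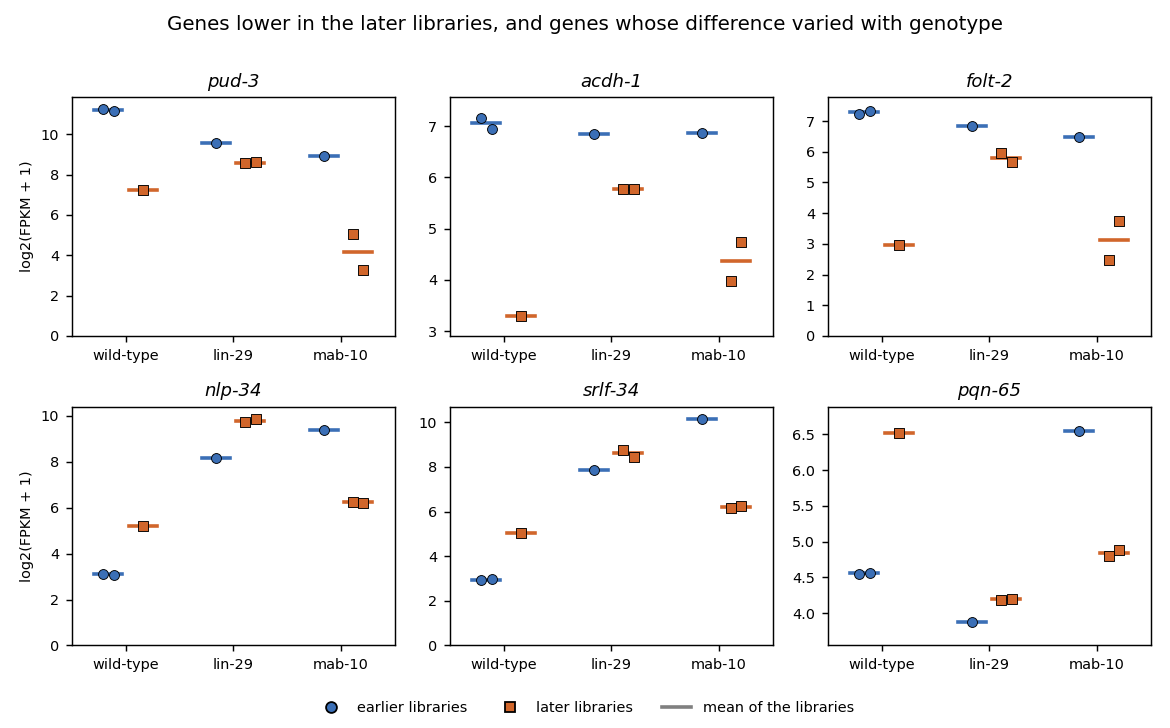
Level of 3 genes that were lower in the later libraries (*pud-3*, *acdh-1*, *folt-2*) and of 3 whose later minus earlier difference varied between genotypes (*nlp-34*, *srlf-34*, *pqn-65*), as log2(FPKM + 1) in each library, with earlier libraries as blue circles, later ones as orange squares and a bar at their mean. *nlp-34*, *srlf-34* and *pqn-65* are higher in the later wild-type library by 1.96 to 2.11 and lower in the later *mab-10* libraries by 1.71 to 3.94.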

How the data were processed

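RNA-Seq of whole young adult hermaphrodites was analysed from a table that the authors deposited as log2(FPKM + 1) per gene. Libraries were made from total RNA on the NeoPrep system, and whether rRNA or poly(A) selection was used is not given in the sources used here. The submitters' processing notes name STAR 2.5.3a and RSEM 1.3.0, the build was WBcel235 (ws258), and the authors' own tests used DESeq2 on counts, which are not used here. Of 46761 genes, 27086 were at 0 in all 9 libraries and 13850 with an FPKM of at least 1 in 3 or more were tested, among them 69 whose values are identical to those of another gene.

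Later minus earlier differences were fitted with limma 3.58.1 (R 4.3.3, trend and robust options) with genotype as a block, and a second model had a term per genotype with an F test of their differences (3 residual degrees of freedom). P-values were adjusted by Benjamini and Hochberg, with thresholds of 0.05 and, for the counts over all genes, a difference of 1. No set test was run, and lists are described by counts and medians. The fit was tested on simulated data.

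The division, the 49 gene lists and the genes named were chosen with earlier results of these data known. Named were the 14 largest rises and 10 largest falls without overlap in any genotype, up to 4 called members of each list (up to 2 with the smallest p where none passed), every vitellogenin, *lin-29*, *mab-10* and *col-19*, and the 5 genes with the smallest interaction p. Other genes in the text are tissue markers, members of a list that did not pass, or genes said to be named after their values were seen. Gene positions are those of the Ensembl annotation of WBcel235. Alternatives were other filters, a pseudocount of 0.1, median ratio and quantile scaling, all 12 libraries, the other gap, library number as a covariate, a replicate block, each genotype alone, and leaving out each library. Figures were drawn with matplotlib 3.10.9. Sequences are not shown here.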

Additional observations from a re-analysis of the deposited data

Results flagged for a closer look

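The later minus earlier difference varied between the 3 genotypes for 720 genes by the F test of limma at an adjusted p under 0.05 (4120 at an unadjusted p under 0.05). Each genotype's difference rests on a single library on one side, and the spread of that lone library is assumed to equal that of the pairs. The genes named here with such a result are *nlp-34* (adjusted p = 4.45e-05), *srlf-34* (0.000617), *pqn-65* (0.000948), F20D1.3 (0.00132) and T20F7.1 (0.00153), which have the smallest p, and *col-19* (0.0112), *pud-2.2* (0.0117), *vit-3* (0.0189), *tts-1* (0.0190), *hmit-1.1* (0.0273), *pept-1* (0.0371), *rpr-1* (0.0372), *acdh-1* (0.0407) and *pud-1.1* (0.0421). For *tts-1* the difference was 5.08 in wild-type, 1.76 in *lin-29* and 2.6 in *mab-10*, and for *hmit-1.1* it was 4.87, 1.07 and 3.44. F20D1.3 differed by 2.13 in wild-type, 0.95 in *lin-29* and -1.19 in *mab-10*, and T20F7.1 by 1.68, 0.01 and -2.16.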

How the results depend on the processing

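Over all genes, 860 rises and 86 falls of over 1 became 518 rises with an FPKM of 1 required in 8 of 9 libraries, 1492 rises with a pseudocount of 0.1, 383 rises and 179 falls under quantile normalization, and 358 rises with the division at the other gap. Within 1 genotype there were 296 falls in wild-type and 203 in *mab-10*. Leaving out each library gave 774 to 1010 rises and 69 to 136 falls. The count of genes varying between genotypes was 351 with no filter, 1742 with all 12 libraries and 168 to 533 with a library left out, and it could not be fitted without the lone library of a genotype.

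Yolk rises were 1 under quantile normalization, at the other gap, with library number as a covariate, within each genotype and with any library left out (1 to 1), and yolk falls 2 at the other gap and 3 to 5 with a library left out. Molting rises were 27 under the stricter filter, 23 under quantile normalization, 2 at the other gap, 33 with the covariate, 28 within wild-type, 33 within *mab-10* and 24 to 63 with a library left out. Molting falls were 1 with no filter or with all 12 libraries, 3 under median ratio scaling, 2 under quantile normalization, 3, 4 and 3 within wild-type, *lin-29* and *mab-10*, and 0 to 2 with a library left out. Neuronal rises were 84 under quantile normalization, 41 at the other gap, 79 within *lin-29* and 105 to 124 with a library left out, and neuronal falls 4 under median ratio scaling and with all 12 libraries, 5 under quantile normalization, 6, 5 and 5 within the genotypes and 1 to 3 with a library left out. Cuticle rises were 43 under the stricter filter, 44 under quantile normalization, 10 at the other gap and 44 to 81 with a library left out, and cuticle falls 1 with no filter or the stricter one, 4 under quantile normalization, 25, 1 and 21 within the genotypes and 1 to 11 with a library left out (11 without *lin-29* replicate 1).

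The molting median of 0.60 was 0.86 with the smaller pseudocount, 0.36 under quantile normalization and 0.32 within wild-type. The neuronal median of 0.67 was 0.47 with no filter, 0.73 under the stricter one, 0.91 with the smaller pseudocount, 0.34 under quantile normalization, 0.58 within wild-type and 0.82 within *mab-10*. The cuticle median of 0.35 was 0.13 under quantile normalization and 0.57 within *lin-29*. With a library left out the medians were -0.10 to -0.01 for yolk, 0.53 to 0.65 for molting, 0.62 to 0.75 for neuronal and 0.26 to 0.46 for cuticle genes. The causes were not tested.

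With replicate number as a block no gene passed (0 of each group in either direction), with 1218 rises and 202 falls at an unadjusted p under 0.05 in limma, and the cuticle median was 0.56. In each genotype replicate 1 is an earlier library and replicate 3 a later one. Only replicate 2 is mixed, earlier in wild-type and later in the mutants, so the blocked difference is estimated through replicate 2 alone. Deviations of same-numbered libraries correlated between 0.23 and 0.466 for replicates 1 and 3. For replicate 2 the correlations were -0.304, -0.234 and 0.2, and 4 of 9 libraries correlated best with their own number. Since replicate number largely follows the series, these values cannot tell whether the numbers mark pairs. The main fit does not take them as pairs.

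Signs turned for *lin-42* (-0.061) and *vit-2* (-0.004) within *mab-10*, for *vit-6* (0.013) and *lin-29* (0.18) within wild-type, and for *mab-10* under quantile normalization (-0.024). *col-19* was 0.23 within *lin-29*, 1.37 within *mab-10* and -0.82 to 0.80 with a library left out. *nlp-34* was -0.53 at the other gap, -0.038 with the covariate, -3.17 within *mab-10* and -0.78 to 1.86 with a library left out. *srlf-34* was 0.31 with the replicate block, 2.09 within wild-type, 0.74 within *lin-29* and -1.60 to 1.41 with a library left out. *pqn-65* was -1.71 within *mab-10* and -0.70 to 1.14 with a library left out, and F20D1.3 was -1.19 and -0.12 to 1.54. T20F7.1 was 0.18 with the replicate block, 1.68 within wild-type, 0.006 within *lin-29* and -1.08 to 0.84 with a library left out. Of 115 named genes that passed, 82 passed in all 9 fits that left out a library.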

Other observations

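Genes of the X chromosome rose more often than those of the autosomes, with 688 of 1973 tested (34.9%) higher in the later libraries and a median difference of 0.35, against 16% to 22.1% higher on the 5 autosomes and medians of 0.04 to 0.17. Of 166 nuclear hormone receptor genes 48 rose (28.9%, beside 21.4% of all tested genes) and 1 fell. Their median was 0.37, or 0.04 after quantile normalization. Of 62 histone genes 21 rose (33.9%) and none fell, with a median of 0.44, or 0.08 after quantile normalization. Of 75 ribosomal protein genes 2 rose (2.67%) and 7 fell (9.33%, beside 6.25% of all tested genes). Their median was -0.10, or 0.02 after quantile normalization. Of 35 cell cycle genes 6 fell (17.1%) and 1 rose (2.86%), the CDK inhibitor *cki-1* (1.19). Of 16 antimicrobial peptide genes of the *nlp* and *cnc* families 8 varied between genotypes, beside 5.2% of all tested genes. The median difference of the 16 was 0.91 in wild-type, 1.38 in *lin-29* and -0.96 in *mab-10*, each with a lone library on one side. Their fitted median of 0.36 depended on such libraries. It was 1.12 once the earlier *mab-10* library was dropped, and 0.13 once the earlier *lin-29* one was. These groups were picked for mention after their values were seen.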
